A study of Mus musculus with 18 samples.

Results

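Progesterone (P4) was compared with its oil vehicle (OIL) in the uterus of mice that had not been given doxorubicin. The comparison uses 6 of the 18 libraries of the series, 3 labelled PBS and P4 and 3 labelled PBS and OIL. All of the animals were adult CD-1 mice, an outbred stock, whose ovaries had been removed, and all 6 of these libraries come from animals given phosphate-buffered saline (PBS), the vehicle of doxorubicin (DOX), which makes saline and surgery common to both groups. The other libraries hold PBS with estradiol (E2) and DOX with OIL, E2 or P4, again 3 each. Total RNA of the whole uterus was sequenced, so every value is a sum over epithelium, stroma, muscle, vessels and immune cells, and fewer cells of a type and less RNA per cell cannot be told apart. The sources used here do not give the dose, the number of injections or the time of collection. The labels do not say that the libraries of a group come from separate animals, so the p-values measure only the spread between these libraries, which may be technical.

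Progesterone acts through the progesterone receptor, a nuclear receptor that binds DNA as a dimer and is made in the epithelium, stroma and muscle of the uterus. In the classical scheme of the mouse, the hormone makes the luminal epithelium secrete Indian hedgehog, which signals to the stroma through Patched receptors, Gli factors and COUP-TFII, while stromal Hand2 restrains growth factors that act back on the epithelium. Removal of the ovaries takes away the main source of both estrogen and progesterone, and the uterus of such an animal is thin and slow to divide.

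The 6 libraries held between 19953103 and 22554000 counts. Levels are given as CPM, a gene's count as a share of the scaled library size, always in the order of replicates 1, 2 and 3, and changes are log2 fold changes of P4 minus OIL with their standard error (SE), from edgeR's quasi-likelihood test over 15494 genes. A gene is said to rise or fall only where the Benjamini-Hochberg adjusted p was under 0.05. Uterine genes were present throughout: the patterning factor Hoxa10 read 198, 186 and 226 CPM under OIL and 518, 537 and 385 CPM under P4, and the estrogen receptor gene Esr1 read 597, 517 and 678 CPM under OIL and 523, 563 and 562 CPM under P4. Genes of ovarian granulosa cells, Fshr and the aromatase gene Cyp19a1, were at 0 counts in all 6, which allows up to 0.0459 CPM under OIL and 0.0451 CPM under P4 (3 counts over each group, counting error only). Of 10 listed ovary markers, however, only Fshr was at 0 in all 6. Their summed level was 51.03, 44.11 and 48.38 CPM under OIL and 62.13, 64.31 and 66.26 CPM under P4. Among the 6 tested, 2 rose and 1 fell, and 1 rose without OIL replicate 2.

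The first principal component of the 1000 most variable genes held 61.2% of the variance and separated the groups, with OIL libraries from -41.6 to -21 and P4 libraries from 21.8 to 38.7. The second, with 18.4%, set OIL replicate 1 (31.3) apart from OIL replicate 2 (-27.6). OIL replicate 2 was the library that stood apart in immune and fat genes. The summed level of 26 macrophage markers was 654.8, 2750.6 and 915.3 CPM in the OIL libraries and 907.5, 1063.1 and 794.3 CPM in the P4 libraries. For 25 genes of lipid-laden macrophages the sums were 714.7, 4629 and 844.7 CPM under OIL and 653.2, 552.9 and 602 CPM under P4. For 21 adipocyte markers they were 1529.2, 4494.9 and 2688.2 CPM under OIL and 1266.6, 1021 and 1001.4 CPM under P4. No marker of these 3 lists was at 0 in all 6 libraries. The macrophage sums of the groups overlapped, with only OIL replicate 2 above the P4 libraries, whereas the adipocyte sum was higher in each OIL library than in any P4 library. Results are also given without OIL replicate 2 where that changes them.

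Progesterone changed 4930 of the 15494 genes tested (31.8%), 2509 upward (16.2%) and 2421 downward (15.6%), and the median log2 fold change over all genes was -0.015. The shares of 16.2% and 15.6% are the background for each count of list members below. Rises of at least 2-fold numbered 465 (3% of the genes tested) and falls of at least 2-fold 805 (5.2%). CPM ranges of the groups did not overlap in 7148 genes (46.1%). Without OIL replicate 2 the test called 4049 of 15647 genes (25.9%), 2068 upward (13.2%) and 1981 downward (12.7%). Of the rises, 1920 were still called, or 76.5%, and of the falls 1804, or 74.5%. Large changes differed by direction: 403 of the 465 rises of at least 2-fold were still called (86.7%), against 581 of the 805 falls (72.2%). In 62 of those 805 falls OIL replicate 2 stood over 4 times above the higher of the other OIL libraries, and 10 had the other sign without it. P4 replicate 3 weighed more on the counts. Leaving it out gave 3146 genes, with 1697 rises and 1449 falls, and leaving out P4 replicate 2 gave 1596 falls.

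**Figure D1:**
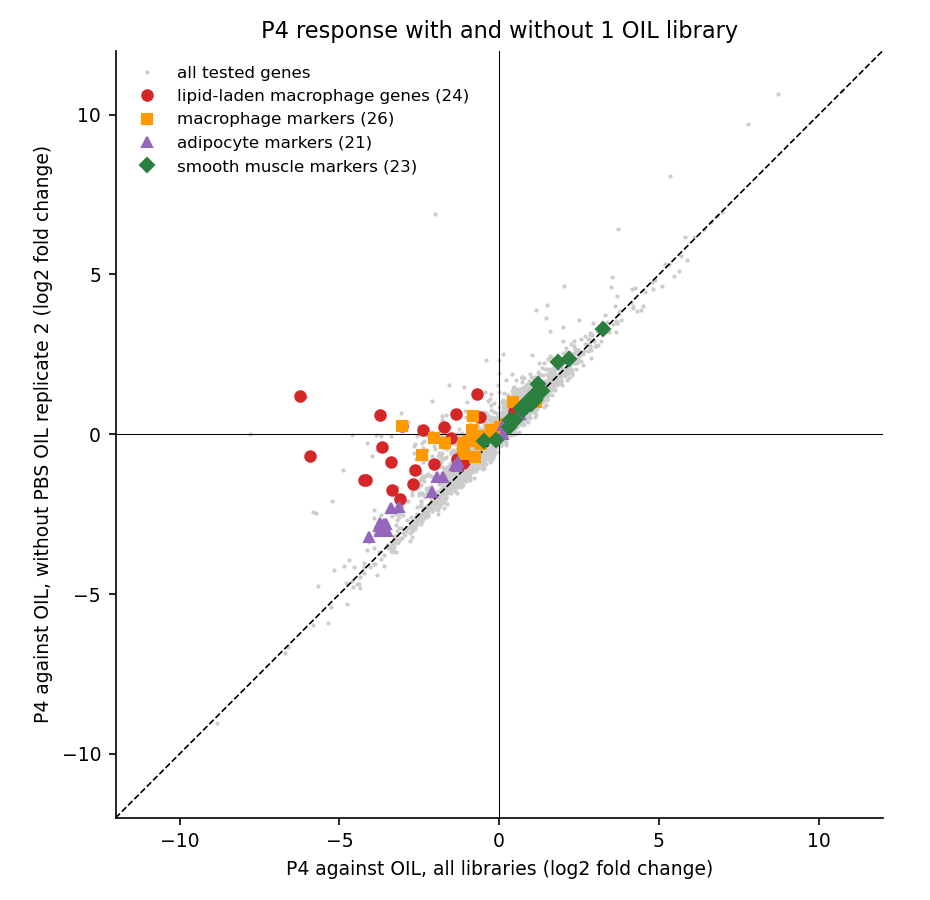
Each point is a gene, with its P4 against OIL log2 fold change from all libraries on the x axis and from the fit without PBS OIL replicate 2 on the y axis. The dashed line marks equal values. Lipid-laden macrophage genes (median -2.51 with all libraries, -0.25 without) lie far above the line, while smooth muscle markers (1.02 and 1.03) lie on it.

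The DOX arm holds the same hormone comparison in 6 other libraries, from animals given doxorubicin, and shares no sample with the PBS arm. There 4618 genes were called (29.8%), 2271 upward (14.7%) and 2347 downward (15.1%), with 452 rises (2.92%) and 600 falls (3.87%) of at least 2-fold. Rises shared by both arms numbered 1727, which is 68.8% of the PBS rises and 76% of the DOX rises. Shared falls numbered 1629, or 67.3% of the PBS falls and 69.4% of the DOX falls. The sign was the same in both arms for 2468 of the 2509 PBS rises (98.4%) and 2377 of the 2421 PBS falls (98.2%).

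**Figure D2:**
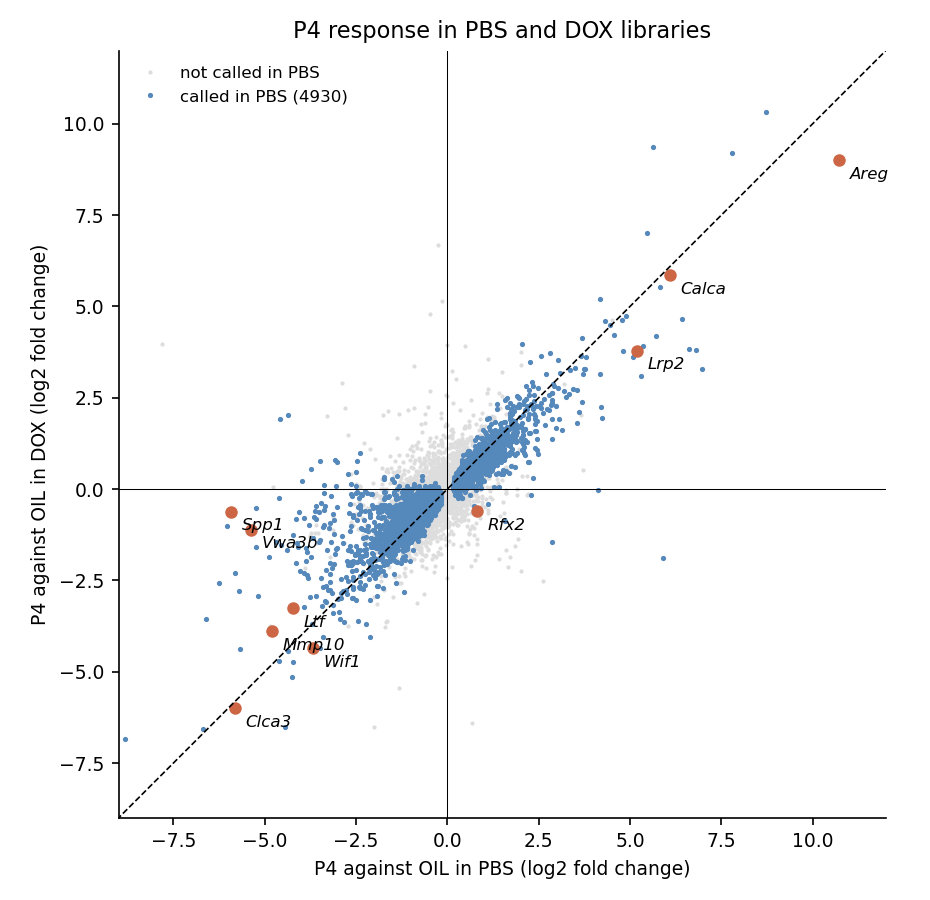
Each point is a gene, with the P4 against OIL log2 fold change in PBS libraries on the x axis and in DOX libraries on the y axis. Blue points are the 4930 genes called in PBS, and the dashed line marks equal values. Calca, Lrp2, Clca3, Ltf, Mmp10 and Wif1 lie near the line, Spp1 and Vwa3b lie near 0 on the y axis, and Rfx2 is above 0 in PBS and below 0 in DOX.

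Amphiregulin (Areg), a ligand of the epidermal growth factor receptor, had 0 counts in all 3 OIL libraries and read 7.06, 7.81 and 13.2 CPM in the P4 libraries. Its 617 counts under P4 put it at least 202.2-fold higher, taking 3 counts over the OIL group as the floor (counting error only). In the E2 libraries, which share the OIL controls, Areg read 0.111, 0 and 0 CPM. Calca, which encodes calcitonin and the calcitonin gene-related peptide, read 0.267, 0.325 and 0.28 CPM under OIL and 14.7, 23.8 and 21.9 CPM under P4. Every P4 library lay far above every OIL library, and the log2 fold change was 6.09 ± 0.64 (adjusted p = 1.95e-05), 6.18 without OIL replicate 2 and 5.86 in the DOX arm.

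Stretches upstream of 3 of the genes that rose are shown because they hold, or lack, 2 kinds of hormone-responsive letters near the start: the core of the element that progesterone and glucocorticoid receptors share, and the cyclic AMP element. They are RefSeq promoters on GRCm38.p6, from 150 to 11 bases before the start of the transcript. Areg is at chr5:91139449-91139588 on the plus strand, Calca at chr7:114636368-114636507 on the minus strand and Mt1 at chr8:94178939-94179078 on the plus strand. The core was searched as GNACA and TGTNC set 3 bases apart, N being any base, together with TGTTCT (a single arm of the element, which may overlap the core), TGACGTCA and TATAAA, all on both strands. Capitals mark TGACGTCA and TATAAA in Areg and the core in Mt1.
Areg: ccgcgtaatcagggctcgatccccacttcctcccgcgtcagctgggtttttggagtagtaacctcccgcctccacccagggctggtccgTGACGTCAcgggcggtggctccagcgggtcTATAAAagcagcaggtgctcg
Calca: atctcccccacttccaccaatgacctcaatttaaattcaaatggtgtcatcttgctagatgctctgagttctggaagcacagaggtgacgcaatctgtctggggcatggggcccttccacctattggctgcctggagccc
Mt1: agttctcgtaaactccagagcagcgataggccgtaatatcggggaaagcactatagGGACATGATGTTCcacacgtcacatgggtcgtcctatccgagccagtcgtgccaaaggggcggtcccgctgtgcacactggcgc
In Areg the cyclic AMP element begins 61 bases and the TATA box 31 bases before the start, and in Mt1 the receptor element core begins 94 bases before it. None of these letters is in the Calca stretch. Over all 32851 mouse promoters of 300 bases (250 before and 50 after the start), 0.475% hold the core, 19% hold TGTTCT, 1.79% hold TGACGTCA and 13.6% hold TATAAA. Of the genes with a matched promoter, the core was in 5 of 349 that rose at least 2-fold (1.43%), in 6 of 572 that fell at least 2-fold (1.05%) and in 55 of all 11851 tested (0.464%). The full consensus of the element was in 0 of the 349, 0 of the 572 and 1 of the 11851. TGACGTCA was in 1.43% of the rises, 2.1% of the falls and 3.25% of the tested genes, TGTTCT in 18.6%, 20.1% and 15.5%, and TATAAA in 12.3%, 15% and 9.56%. CACGTG, the E-box, was in 11.2%, 9.27% and 11.1%, TTATGTAA, the D-box, in 0.86%, 1.4% and 0.768%, and the estrogen response element in 0, 0 and 2 genes. These are matches of letters and not measured binding.

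Lrp2, or megalin, which takes up vitamin carriers and other proteins from the lumen, read 3.08, 11.4 and 15.1 CPM under OIL and 316, 326 and 439 CPM under P4, a log2 fold change of 5.196 ± 0.69 (adjusted p = 0.00011). Slc6a14, a transporter of neutral and basic amino acids, read 1.38, 1.3 and 1.96 CPM under OIL and 37.1, 35.4 and 37.8 CPM under P4, with little spread within either group and a change of 4.57 ± 0.20 (adjusted p = 1.6e-09). Groups did not overlap in either gene, and OIL replicate 1 was the lowest library for Lrp2. Slc24a4, a sodium, calcium and potassium exchanger, read 0.134, 0.186 and 0.606 CPM under OIL and 5.26, 9.92 and 11.1 CPM under P4, a change of 4.81 ± 0.65. S100g, the vitamin D-dependent calcium-binding protein calbindin-D9k, read 10.4, 5.67 and 9.84 CPM under OIL and 63.6, 129 and 145 CPM under P4, a change of 3.70 ± 0.42. P4 replicate 1 was the lowest P4 library in both. Calb1, the larger calbindin, read 50.4, 47.9 and 84.7 CPM under OIL and 295, 522 and 508 CPM under P4, with a change of 2.86 ± 0.42. Transthyretin (Ttr), a carrier of thyroid hormone and of the retinol-binding protein, read 2.05, 1.02 and 1.73 CPM under OIL and 18.8, 40.6 and 28.9 CPM under P4, and its change of 4.19 ± 0.45 was 2.24 in the DOX arm.

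Gldc, part of the mitochondrial glycine cleavage system, read 0.401, 0.418 and 0.559 CPM under OIL and 8.23, 13 and 19.7 CPM under P4, a change of 4.88 ± 0.39. Npl, a lyase of sialic acid, read 3.97, 5.39 and 6.85 CPM under OIL and 112, 179 and 151 CPM under P4, a change of 4.77 ± 0.26. Acot7, an acyl-CoA thioesterase, read 16.3, 18.6 and 15.2 CPM under OIL and 199, 268 and 217 CPM under P4 and had the smallest adjusted p of the enzyme genes described here (2.9e-10, change 3.77 ± 0.14). Hdc makes histamine from histidine. It read 19.4, 19.6 and 48.5 CPM under OIL and 245, 452 and 434 CPM under P4, a change of 3.69 ± 0.48, and OIL replicate 3 was the highest OIL library. Hsd11b2 inactivates glucocorticoids and so shields the mineralocorticoid receptor. It read 13.9, 14.4 and 23.5 CPM under OIL and 226, 213 and 212 CPM under P4, a change of 3.65 ± 0.33 with P4 libraries close together. The skeletal muscle actin gene Acta1 read 9.49, 14.4 and 15.5 CPM under OIL and 151, 170.3 and 204 CPM under P4, a change of 3.74 ± 0.27. Fam83a (3.70) and the matrix protease gene Adamts16 (3.48, 4.62 without OIL replicate 2) complete the set. All 15 of these genes and Areg were called in each of the 6 fits that left out 1 of the 6 libraries, and all were also called in the DOX arm.

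**Figure D3:**
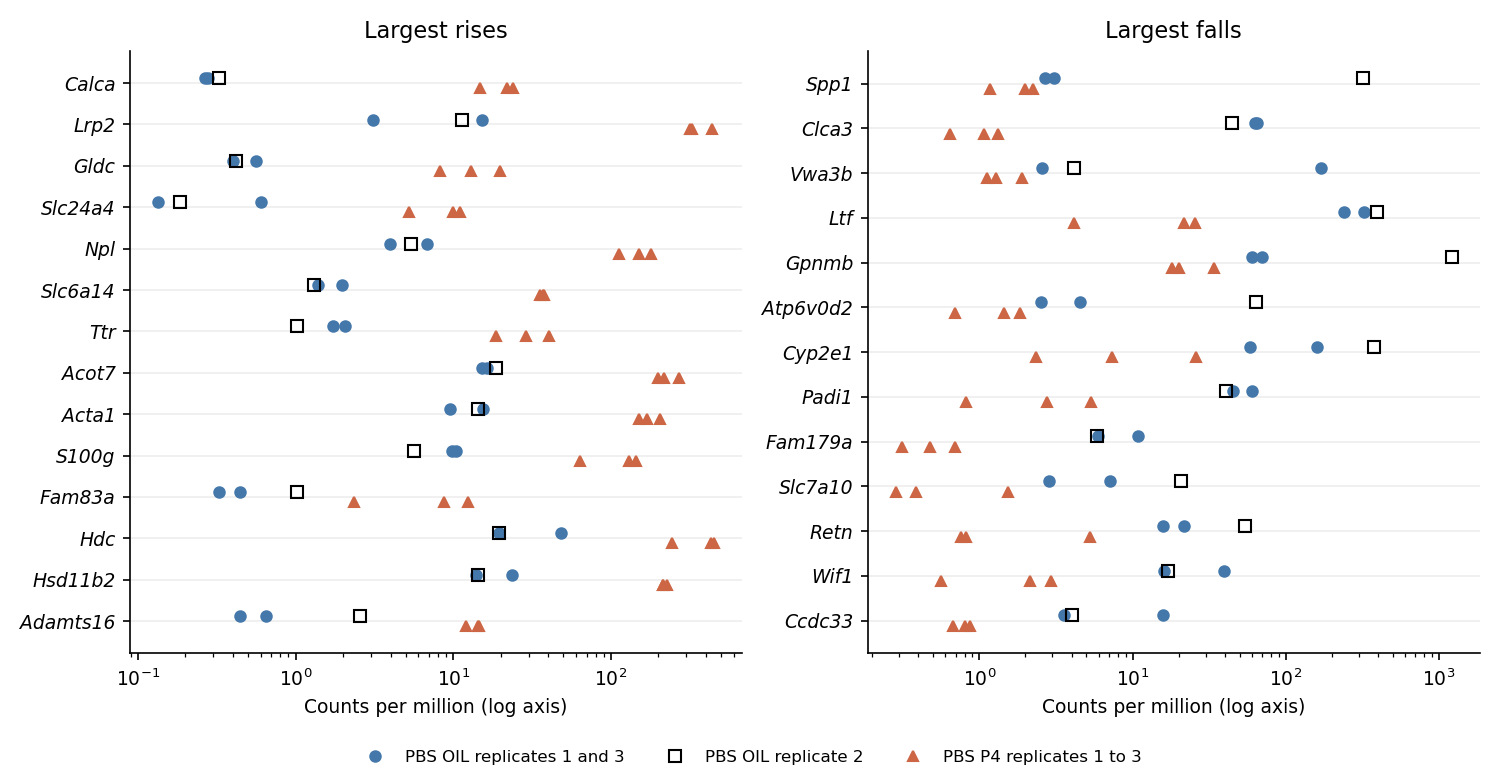
Level in each library, in CPM on a log axis, of the 14 largest rises and 13 largest falls. Only called genes whose groups did not overlap and whose average was 1 or more on the log2 CPM scale were ranked, once with all libraries and once without PBS OIL replicate 2. Blue circles are PBS OIL replicates 1 and 3, open squares PBS OIL replicate 2, and orange triangles the 3 PBS P4 libraries. The squares lie below all triangles for every rise, and far to the right of the circles for Spp1, Gpnmb and Atp6v0d2.

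The largest falls differed in how much of the fall rested on 1 OIL library. Clca3 (listed as Clca1 in GENCODE M21), a secreted protein linked to mucus, read 63, 44.4 and 65 CPM under OIL and 1.08, 0.647 and 1.32 CPM under P4, a change of -5.82 ± 0.57 (adjusted p = 9.93e-06). The iron-binding secretory protein lactoferrin (Ltf), a classical estrogen-induced gene of this tissue, read 322, 396 and 239 CPM under OIL and 25.6, 4.14 and 21.8 CPM under P4, a change of -4.22 ± 0.85. Padi1, which converts arginine to citrulline in proteins, read 60, 40.6 and 45.5 CPM under OIL and 5.35, 0.82 and 2.74 CPM under P4, a change of -4.04 ± 0.69. In each of these 3 genes the groups did not overlap and OIL replicate 2 lay near the other OIL libraries. Wif1, a secreted inhibitor of Wnt ligands, read 39.3, 16.9 and 16 CPM under OIL and 2.92, 0.561 and 2.13 CPM under P4, a change of -3.69 ± 0.67, with OIL replicate 1 the highest. Mmp10, a matrix protease, read 10.2, 10.8 and 5.78 CPM under OIL and 0.18, 0.474 and 0.284 CPM under P4, a change of -4.81 ± 0.63, with every P4 library below 1 CPM. Fam179a (-3.91) and Ccdc33 (-3.31) also fell. All 7 of these falls were called in each fit that left out 1 library and in the DOX arm.

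Other falls were smaller, or no longer called, without 1 OIL library. Osteopontin (Spp1), an extracellular matrix protein and cytokine, read 2.67, 319 and 3.08 CPM under OIL and 1.98, 1.17 and 2.22 CPM under P4. Only OIL replicate 2 was high, and the change of -5.92 ± 1.37 (adjusted p = 0.00473) became -0.68 without it (adjusted p = 0.184). Gpnmb, a membrane glycoprotein of macrophages that load lipid, read 70.3, 1212.9 and 59.8 CPM under OIL and 34.1, 20.1 and 18.1 CPM under P4. Its change of -4.21 ± 0.87 shrank to -1.43 without OIL replicate 2 but was still called (adjusted p = 0.00342). Atp6v0d2, a subunit of the vacuolar proton pump, read 4.55, 63.6 and 2.52 CPM under OIL and 1.44, 0.69 and 1.84 CPM under P4, and its change of -4.15 ± 0.98 became -1.42 without that library (adjusted p = 0.0826). Cyp2e1, a cytochrome P450, read 57.9, 375 and 159.9 CPM under OIL and 25.9, 2.33 and 7.33 CPM under P4, the amino acid transporter gene Slc7a10 read 2.85, 20.7 and 7.13 CPM under OIL and 1.53, 0.388 and 0.284 CPM under P4, and the adipokine gene Retn read 15.7, 54 and 21.5 CPM under OIL and 5.31, 0.82 and 0.757 CPM under P4. These 3 were higher in every OIL library than in any P4 library, with OIL replicate 2 the highest. Their changes of -4.06 ± 1.49, -3.79 ± 1.32 and -3.72 ± 1.25 were, without it, -3.20, -2.75 and -3.02, but were not called (adjusted p = 0.142, 0.147 and 0.111). None of the 6 was called in the DOX arm, where the changes ran from -2.03 (Atp6v0d2) to -0.62 (Spp1). In Vwa3b another library was high: it read 171, 4.13 and 2.56 CPM under OIL and 1.89, 1.12 and 1.28 CPM under P4, a change of -5.37 ± 1.184 that was -1.23 without OIL replicate 1 (adjusted p = 0.0385), and the DOX arm gave -1.11 (adjusted p = 0.512).

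The receptors themselves moved little. The progesterone receptor gene Pgr read 45.4, 39.6 and 67.5 CPM under OIL and 34, 36.5 and 46.6 CPM under P4, a change of -0.38 ± 0.20 that was not called (adjusted p = 0.156), and its groups overlapped. Esr1 changed by -0.12 ± 0.15 (adjusted p = 0.567). Of 24 genes for steroid receptors and their cofactors, 7 rose and 4 fell, with a median of 0.14. Gata2, a factor that works with the progesterone receptor, rose by 0.71 ± 0.15, and the corepressor gene Nrip1 rose by 0.68 ± 0.17. Among the falls were the vitamin D receptor gene Vdr (-1.51 ± 0.29), the mineralocorticoid receptor gene Nr3c2 (-0.76 ± 0.22), the coactivator gene Ncoa3 (-0.30 ± 0.07) and the estrogen receptor cofactor gene Greb1 (-0.97 ± 0.19). In steroid metabolism 3 of 20 genes rose and 3 fell, shares near those of all tested genes (16.2% and 15.6%). Besides Hsd11b2, Hsd17b4 rose by 0.49 ± 0.10 and Hsd17b11 fell by 0.49 on the log2 scale. The count of 3 falls was 1 without OIL replicate 3, P4 replicate 2 or P4 replicate 3.

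Of 37 known progesterone receptor targets of the uterus 18 rose and 7 fell, with a median of 0.60 beside -0.015 over all genes, and leaving out 1 library gave 17 to 19 rises and 4 to 7 falls, 4 without OIL replicate 1. These genes were listed because the hormone is known to change them, so their direction is not independent evidence. Hedgehog genes rose from ligand to target. Ihh, the epithelial ligand, read 16, 9.01 and 17.1 CPM under OIL and 36.2, 70.2 and 40.6 CPM under P4, with all P4 libraries above all OIL libraries and a change of 1.801 ± 0.41 (adjusted p = 0.00399). The receptor gene Ptch1, itself a target, read 204, 148 and 228 CPM under OIL and 421, 476 and 331 CPM under P4, a change of 1.08 ± 0.27. Hhip, a membrane protein that binds and holds hedgehog ligands, read 0.178, 0.186 and 0.419 CPM under OIL and 3.64, 8.2 and 2.65 CPM under P4, a change of 4.19 ± 0.55. The transcription factor gene Gli1 read 278, 195 and 287 CPM under OIL and 469, 506 and 469 CPM under P4, a change of 0.93 ± 0.19, and Sufu, its inhibitor, rose by 0.38 ± 0.08. In all, 11 of 18 pathway genes rose and 1, Scube3, fell (-1.41 ± 0.33), and 9 to 11 rose in the fits that left out 1 library. The stromal factors downstream rose too: Nr2f2 (COUP-TFII) read 173, 188 and 202 CPM under OIL and 314, 269 and 256 CPM under P4, a change of 0.58 ± 0.15, and Hand2 read 60.8, 43.7 and 53.4 CPM under OIL and 99.3, 92.2 and 102 CPM under P4, a change of 0.89 ± 0.20. The groups did not overlap in either gene, and Nr2f2 was not called in the DOX arm (adjusted p = 0.0887).

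Genes that progesterone and glucocorticoid receptors both control split. Fkbp5, a co-chaperone of steroid receptors, read 10.2, 15.3 and 8.72 CPM under OIL and 82, 92.2 and 75.5 CPM under P4, a change of 2.87 ± 0.19 (adjusted p = 4.39e-07). The zinc finger factor Zbtb16 (PLZF) read 11.6, 15.8 and 9.46 CPM under OIL and 124, 103 and 96.2 CPM under P4, a change of 3.13 ± 0.27, and 1.63 in the DOX arm. Hif3a (2.90 ± 0.32) and the metallothionein gene Mt2 (2.08 ± 0.22) rose as well, and the metal-binding Mt1, whose upstream stretch is shown above, read 40.2, 36.3 and 36.3 CPM under OIL and 98.2, 104 and 103 CPM under P4, a change of 1.43 ± 0.22. Tsc22d3 and Per1, also used as glucocorticoid reporters, were not called: Tsc22d3 (GILZ) read 199, 216 and 204 CPM under OIL and 234, 209.5 and 197 CPM under P4 with overlapping groups, and Per1 read 148, 159 and 145 CPM under OIL and 178, 152 and 169 CPM under P4 (adjusted p = 0.826 and 0.646). The phosphatase gene Dusp1 (-1.25 ± 0.31), the NF-kappaB inhibitor gene Nfkbia (-0.57 ± 0.11), Ddit4 (-0.70 ± 0.19) and Pdk4 (-1.27 ± 0.38) fell, and none of these 4 was called in the DOX arm. Pdk4 was also not called without OIL replicate 2 (-1.17, adjusted p = 0.0556 by edgeR). Of 32 listed genes 9 rose and 5 fell; rises numbered 9 or 10 in every fit that left out 1 library, and falls 2 without OIL replicate 2 or without P4 replicate 3.

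Growth factor systems changed in ligands, receptors and inhibitors. In the insulin-like growth factor (IGF) list 5 of 18 genes rose and 10 fell, with a median of -0.49. The stromal ligand Igf1 read 54.2, 93.9 and 69.1 CPM under OIL and 206, 198 and 247 CPM under P4, a change of 1.58 ± 0.22. Of the 6 binding protein genes tested, Igfbp2 to Igfbp7, 4 rose: Igfbp5 read 222, 476 and 439 CPM under OIL and 1157.7, 977 and 1575.7 CPM under P4 (1.71 ± 0.29), Igfbp4 rose by 1.01 ± 0.14, Igfbp7 by 0.71 ± 0.10 and Igfbp6 by 0.49. Igfbp3 fell (-0.91), Igfbp2 was not called (0.07), and Igfbp1 was at 0 counts in all 6 libraries. The adaptor gene Irs2, which carries the signal from the receptor, read 36.6, 39.9 and 43.5 CPM under OIL and 17.4, 13.3 and 12.7 CPM under P4, a change of -1.47 ± 0.18, and the clearance receptor gene Igf2r changed by -0.72 ± 0.17. Rises stayed at 5 in every fit without 1 library, while falls dropped to 5 without OIL replicate 3 or P4 replicate 3 and to 4 without P4 replicate 2.

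In the EGF family, the receptor gene Egfr read 31.7, 46 and 50.4 CPM under OIL and 100.4, 93.1 and 108 CPM under P4, a rise of 1.24 ± 0.18, beside its ligand gene Areg. The other receptor genes, Erbb4 (-2.24 ± 0.56), Erbb3 (-0.65 ± 0.19) and Erbb2 (-0.38 ± 0.12), and the ligand gene Hbegf (-0.74 ± 0.23) fell. The falls of Erbb2, Erbb3 and Hbegf were called in 3, 4 and 2 of the 6 fits that left out 1 library; the list of 15 held 5 falls with all libraries and 1 without OIL replicate 1 or P4 replicate 1, and 3 without P4 replicate 2. FGF signalling held 10 falls and 1 rise in 25 genes, median -0.44, and 5 falls without P4 replicate 2 or without P4 replicate 3. The ligand gene Fgf9 read 6.24, 6.17 and 5.41 CPM under OIL and 2.02, 3.28 and 1.94 CPM under P4 (-1.30 ± 0.30) and Fgf16 fell by 2.39 on the log2 scale. Etv4, a transcription factor induced by FGF signals, read 6.24, 6.32 and 2.47 CPM under OIL and 0.9, 0.69 and 0.426 CPM under P4 (-2.89 ± 0.45), and Spred2, an inhibitor of the Ras pathway, changed by -0.52 ± 0.13. The single rise was the receptor gene Fgfr4 (1.28 ± 0.39), called in 2 of those 6 fits.

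Of 40 Wnt pathway genes 13 fell and 5 rose, median -0.24, with 11 to 14 falls in the fits without 1 library. The epithelial ligand gene Wnt7a read 60.5, 43.5 and 41.8 CPM under OIL and 11.8, 13.7 and 19.9 CPM under P4, a change of -1.69 ± 0.29, and Wnt4 and Wnt2 fell (-1.13 ± 0.32 and -1.48 ± 0.22). The receptor gene Fzd10 read 87.8, 38.5 and 49.4 CPM under OIL and 10.7, 12 and 11 CPM under P4, a change of -2.38 ± 0.31. Axin2, a general target and inhibitor of canonical Wnt signalling, read 198, 122 and 145 CPM under OIL and 77.8, 71.1 and 98.4 CPM under P4, a change of -0.91 ± 0.16. Among the 5 rises were the ligand genes Wnt5a at 70.7, 72 and 87.9 CPM under OIL and 151, 147 and 146 CPM under P4 (0.94 ± 0.17) and Wnt11 at 5.62, 8.31 and 14.1 CPM under OIL and 26.9, 35.1 and 41.9 CPM under P4 (1.89 ± 0.31). In both the lowest P4 library was above the highest OIL library. Fzd2 (0.85 ± 0.22) and Lef1 (0.67 ± 0.16) rose as well.

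In the BMP and activin pathway the secreted inhibitors rose: Fst, which binds activins, read 2.72, 5.43 and 2.8 CPM under OIL and 11.9, 10.3 and 11.8 CPM under P4 (1.64 ± 0.43), its relative Fstl3 rose by 1.45 ± 0.25, and Chrd, which binds BMPs, by 0.84 ± 0.14. The ligand genes Gdf11 (1.57 ± 0.29) and Gdf7 (1.39 ± 0.25) also rose. The receptor gene Bmpr1b (-1.61 ± 0.32), the BMP target gene Id3 (-0.99 ± 0.23), Inha (-0.73 ± 0.17) and Bmp3 (-1.48 ± 0.38) fell. The count of 12 falls in 39 genes was 6 without OIL replicate 2 or P4 replicate 3 and 4 without P4 replicate 2, whereas rises were 5 or 6 throughout.

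**Figure D4:**
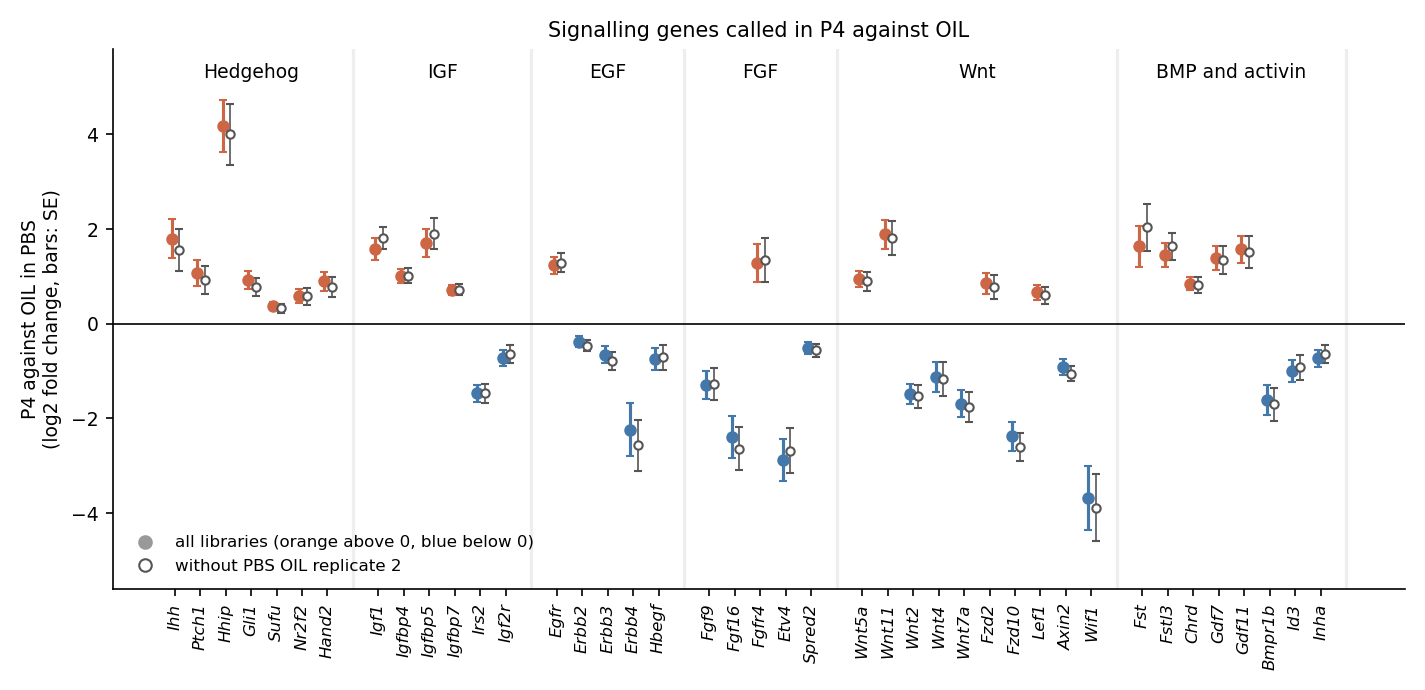
P4 against OIL log2 fold change in PBS with its SE for genes of 6 signalling systems, from all libraries (filled) and without PBS OIL replicate 2 (open). All genes shown were called with all libraries. The hedgehog genes and IGF binding proteins shown lie above 0, and Wnt7a, Fzd10, Wif1, Etv4 and Erbb4 lie below it, with open and filled points close together.

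Estrogen-induced genes of the uterus did not move as 1 group. Of 39 tested 12 fell and 7 rose, with a median of -0.48 (-0.17 without OIL replicate 2). The share that rose was near that of all tested genes (16.2%). Beside Ltf and Padi1, lipocalin 2 (Lcn2), a secreted iron-carrier protein, read 40.3, 36.7 and 21.1 CPM under OIL and 7.15, 3.28 and 6.1 CPM under P4, a change of -2.57 ± 0.38, and Greb1 read 57.5, 36.7 and 42 CPM under OIL and 23.9, 22.4 and 23.1 CPM under P4, a change of -0.97 ± 0.19. Igf1, the creatine kinase gene Ckb (1.05 ± 0.19), Susd2 (1.03 ± 0.15) and the potassium channel gene Kcnk3 (0.84 ± 0.17) rose. Levels in the E2 libraries, which share the OIL controls, were 229.6, 579 and 321 CPM for Ltf, 144, 68.2 and 70.7 CPM for Lcn2 and 621, 395 and 590.1 CPM for Igf1. The surface mucin gene Muc1 read 35, 19.2 and 23 CPM under OIL and 13.2, 22.6 and 19.7 CPM under P4, with overlapping groups and no call (adjusted p = 0.162).

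Genes of cell division were mostly not called. None of 31 mitosis genes was called in either direction by edgeR, DESeq2 or limma voom (median 0.01, 1 at an unadjusted p under 0.05), and Mki67, a marker of cycling cells, read 39.9, 20 and 23.4 CPM under OIL and 18.9, 24.9 and 20.3 CPM under P4 with overlapping groups (adjusted p = 0.543). Of 33 replication genes only Tyms, a thymidylate synthase (0.90 ± 0.16), and Pcna, the sliding clamp (0.44 ± 0.12), rose, and 1 rose without OIL replicate 3 or P4 replicate 3. The cyclin gene Ccnd1 read 248, 135 and 119 CPM under OIL and 86.8, 95.2 and 98.5 CPM under P4, a change of -0.84 ± 0.26 that was called in 2 of the 6 fits without 1 library; OIL replicate 1 was the highest. The inhibitor genes Cdkn1c (-0.68 ± 0.15) and Cdkn2b (-1.79 ± 0.37) fell. None of the mitosis genes was called in the DOX arm or in any fit that left out 1 library.

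Muscle genes rose together. Of 23 smooth muscle markers 16 rose and 0 fell, with a median of 1.02, and 14 to 16 rose in the fits without 1 library. At an unadjusted p under 0.05 and in DESeq2 and limma voom, 0 fell as well. Their summed level ran from 14145.9 to 17234.5 CPM under OIL and from 26788.2 to 34646.3 CPM under P4. Acta2, the smooth muscle actin, read 2267.6, 2294.6 and 2629.5 CPM under OIL and 5609.4, 5310.6 and 4585 CPM under P4, a change of 1.11 ± 0.20. The tropomyosin gene Tpm2 changed by 1.34 ± 0.22 and the muscle creatine kinase gene Ckm by 3.25 ± 0.57. In the DOX arm 14 of these genes rose and 0 fell. Whether the share of muscle in the dissected tissue moved with P4 was not tested. The adipocyte sums given above were lower in every P4 library of the PBS arm, but those of the DOX arm overlapped (963.4 to 1788.2 CPM under OIL and 928 to 1262.2 CPM under P4).

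Stromal markers held 7 rises and 1 fall in 25 genes. The patterning factors Hoxa11 (106, 89.4 and 122 CPM under OIL and 252, 275 and 229.9 CPM under P4) and Hoxa10, both genes of uterine identity and progesterone response, rose by 1.25 ± 0.20 and 1.24 ± 0.24, and the small proteoglycan-binding protein gene Dpt by 1.16 ± 0.24. The single fall, Pdgfrb (-0.41 ± 0.15), was called in 1 of the 6 fits without 1 library. Msx1 rose by 0.83 ± 0.23 and Msx2 fell by 1.36 on the log2 scale, so these related homeobox genes went opposite ways, though Msx1 was not called without OIL replicate 2 (adjusted p = 0.0586). Among decidual markers Prl8a2, Prl3c1, Prl and Igfbp1 were at 0 counts in all 6 libraries, and 2 of 11 tested rose and 1, Wnt4, fell (0 without OIL replicate 1 or P4 replicate 1). That is 27.3% of the 11 called, beside 31.8% of all tested genes. Collagen and lysyl oxidase genes held 6 rises and 5 falls in 36, shares near those of all tested genes (16.2% and 15.6%). In the DOX arm 17 rose and 3 fell, with a median of 0.63, beside 14.7% and 15.1% of all tested genes there. The summed PBS levels were 4495.6, 8369 and 5261.8 CPM under OIL and 8067, 7876.2 and 8536.4 CPM under P4, with OIL replicate 2 the highest OIL library. Without OIL replicate 2 there were 11 rises, and falls were 2 without P4 replicate 1 and 3 without P4 replicate 2. Col6a2 read 232, 424 and 314 CPM under OIL and 784, 719.7 and 906 CPM under P4, a change of 1.31 ± 0.21, and the crosslinking enzyme gene Lox read 23.9, 48.8 and 33.6 CPM under OIL and 19.9, 13.9 and 17.7 CPM under P4, a change of -1.04 ± 0.26. In matrix remodelling, the hyaluronan synthase gene Has2 (1.69 ± 0.34), the protease gene Adamts1 (1.48 ± 0.24) and Tnfaip6 (1.25 ± 0.25) rose, and Mmp11 read 212, 167 and 132 CPM under OIL and 50.2, 50.7 and 42 CPM under P4, a change of -1.84 ± 0.21. In this list of 35, 7 rose and 4 fell, 31.4% in all beside 31.8% of all tested genes, and in the DOX arm 11 rose and 3 fell. Rises were 11 without OIL replicate 2, 3 without OIL replicate 1, OIL replicate 3 or P4 replicate 3, and 4 without P4 replicate 2, and falls were 2 without OIL replicate 2.

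Epithelial markers were not shifted as a group, with 4 rises and 5 falls in 28, shares near those of all tested genes (16.2% and 15.6%). Their summed levels were 1287.9 to 2082.9 CPM under OIL and 1648.9 to 2420.1 CPM under P4. The rises were Calb1, the tight junction gene Cldn3 (1.39 ± 0.24), the lysophosphatidic acid receptor gene Lpar3 (1.78 ± 0.47) and the factor gene Ovol1 (1.596 ± 0.40). The cadherin gene Cdh16 read 91.7, 41.1 and 43.4 CPM under OIL and 17.4, 29.2 and 16.7 CPM under P4 and fell by 1.48 on the log2 scale. The count of rises was 7 without P4 replicate 1, and falls were 2 without OIL replicate 1 and 3 without P4 replicate 1 or P4 replicate 3. Of 14 gland markers 4 rose and 3 fell, while their summed level, to which Ltf and Wfdc2 contribute, was 661.4 to 865.1 CPM under OIL and 386.4 to 469.1 CPM under P4. The protease inhibitor gene Spink3 had 1 count over the OIL libraries and 307 over the P4 libraries, a ratio of 301.8 with a 95% counting interval of 53.76 to 11958. Fxyd4, a regulator of the sodium pump, rose by 1.82 ± 0.32, and Wfdc2 read 299, 204 and 238 CPM under OIL and 126, 133 and 145 CPM under P4, a change of -0.88 ± 0.17.

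The chloride channel gene Cftr read 17.6, 13.3 and 13.8 CPM under OIL and 1.84, 1.34 and 2.98 CPM under P4, a change of -2.86 ± 0.31 (adjusted p = 2.29e-05), while the sodium pump subunit gene Atp1b1 read 92, 81 and 84.2 CPM under OIL and 261, 286 and 295 CPM under P4, a change of 1.71 ± 0.20. Cftr was at 1 to 3 CPM in the P4 libraries and above 13 in the OIL libraries. The calcium channel genes Trpv6 (-1.02 ± 0.19) and Trpv4 (-0.92 ± 0.15) and the potassium channel gene Kcnn4 (-1.81 ± 0.29) fell, and Aqp11, a water channel, rose by 1.52 ± 0.25. Of 33 channel, pump and aquaporin genes 6 rose and 6 fell, shares near those of all tested genes (16.2% and 15.6%). Among 29 carriers of amino acids and sugars 4 rose, a share near that of all tested genes (16.2%). Falls numbered 9, and 5 without P4 replicate 3. The glucose transporter gene Slc2a3 read 34, 39 and 84.2 CPM under OIL and 260.5, 330.0 and 486 CPM under P4, a change of 2.78 ± 0.38. The taurine transporter gene Slc6a6 read 659, 619 and 639 CPM under OIL and 353, 316 and 336 CPM under P4, a change of -0.93 ± 0.11, and the cystine carrier gene Slc7a11 read 4.28, 18 and 21.7 CPM under OIL and 1.49, 1.81 and 1.75 CPM under P4, a change of -3.12 ± 0.57.

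Prostaglandin genes rose in 9 and fell in 4 of 29, with a median of 0.21. Pla2g10, a secreted phospholipase that frees fatty acids, read 5.48, 4.69 and 10.3 CPM under OIL and 43.3, 65.8 and 53.5 CPM under P4, a change of 2.99 ± 0.30, and the receptor gene Ptger3 read 18.1, 39.9 and 26.2 CPM under OIL and 88.1, 109 and 66.3 CPM under P4, a change of 1.64 ± 0.31. The synthase genes Ptges2 (0.70 ± 0.12) and Ptges3 (0.57 ± 0.09) rose. Hpgds, which makes prostaglandin D2, read 31.4, 22.1 and 20 CPM under OIL and 7.2, 5.43 and 5.34 CPM under P4, a change of -2.03 ± 0.24, its receptor gene Ptgdr fell by 2.61 on the log2 scale, and the uptake carrier gene Slco2a1 by 1.54. In the retinoic acid pathway, of 22 genes 3 rose, a share near that of all tested genes (16.2%), and 6 fell (3 falls without OIL replicate 2). The synthesis enzyme genes went opposite ways: Aldh1a2 read 26.2, 42.4 and 37.4 CPM under OIL and 108, 86.7 and 97.9 CPM under P4 (1.47 ± 0.31) and Aldh1a3 read 28.6, 31.1 and 24.7 CPM under OIL and 11.7, 3.36 and 4.45 CPM under P4 (-2.11 ± 0.48). Crabp1, which binds retinoic acid in the cytosol, rose by 2.80 ± 0.56.

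Most genes of the respiratory chain rose, by small amounts. Of 35 nuclear genes of oxidative phosphorylation 29 rose and 0 fell, with a median of 0.43, and 23 to 30 rose in the fits without 1 library. Their summed level was 3573.6 to 3945.5 CPM under OIL and 4839.3 to 5346.4 CPM under P4. Ndufa4 read 68.4, 61.3 and 61.9 CPM under OIL and 107, 129.6 and 104 CPM under P4, a change of 0.83 ± 0.12, and cytochrome c (Cycs) read 18.5, 23.4 and 18.6 CPM under OIL and 33.7, 36.8 and 49.6 CPM under P4, a change of 0.99 ± 0.16. Of 13 genes encoded by the mitochondrial genome 7 rose and 0 fell, with a median of 0.45 and 5 to 8 rises in the fits without 1 library, and mt-Nd5 read 1193.1, 1332.8 and 1334.9 CPM under OIL and 2226.1, 2455.6 and 2081.3 CPM under P4, a change of 0.81 ± 0.13. In the DOX arm 31 of the nuclear and 9 of the mitochondrial genes rose. In both lists 0 fell in that arm, and in PBS 0 fell by DESeq2, by limma voom or at an unadjusted p under 0.05. Ppargc1a, a coactivator of mitochondrial genes, fell (-1.05 ± 0.21).

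Genes for making ribosomes and folding proteins rose as well. Of 30 ribosome biogenesis genes 20 rose and 0 fell, with a median of 0.36; the count was 12 without OIL replicate 2 and 10 without P4 replicate 3. Rrp12, which acts in export of ribosomal subunits, read 10.7, 11 and 9.18 CPM under OIL and 21, 20.8 and 37.3 CPM under P4, a change of 1.35 ± 0.23, and the helicase gene Ddx21 read 53.5, 66.4 and 65.5 CPM under OIL and 108, 98 and 174 CPM under P4, a change of 1.03 ± 0.19. P4 replicate 3 was the highest library in both. Of 37 ribosomal protein genes 1 was called up with all libraries (Rps2, in 1 of the 6 fits without 1 library) and 16 were called down without OIL replicate 2, where their median was -0.33. Their summed level was 49381.2, 30516.2 and 37179.3 CPM under OIL and 34989.4, 35385.6 and 34318.7 CPM under P4. OIL replicate 1 was the highest library and OIL replicate 2 the lowest, so the falls rest on which OIL library is kept. In the DOX arm 0 rose and 0 fell, with a median of 0.02. Heat shock protein genes rose in 10 and fell in 0 of 21, median 0.53 (7 to 9 rises without 1 library). The smallest p was that of Hspa4 at 126, 129.7 and 142 CPM under OIL and 216, 246 and 286 CPM under P4 (0.91 ± 0.12). For heat shock and ribosome biogenesis genes 0 fell at an unadjusted p under 0.05, by DESeq2 or by limma voom. Chaperones of the endoplasmic reticulum rose in 8 and fell in 3 of 26, but in 1 without P4 replicate 3 (4 without OIL replicate 1, 3 without OIL replicate 3). Falls were 1 without P4 replicate 2 or P4 replicate 3. Calr changed by 0.45 ± 0.12, and the stress factor gene Trib3 by -1.32 ± 0.31. In redox defence 10 of 28 genes rose and 1, Mt3, fell (-1.76 ± 0.37); the glutathione transferase gene Gstm2 read 124, 72.7 and 69.5 CPM under OIL and 392, 506 and 455 CPM under P4, a change of 2.34 ± 0.18.

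Glycolysis and hypoxia genes split, with 9 rises and 7 falls in 30 (3 falls without OIL replicate 2 or P4 replicate 2, 4 without P4 replicate 3). The oxygen-response factor gene Hif1a read 82.8, 115 and 128 CPM under OIL and 247, 265 and 275 CPM under P4, a change of 1.27 ± 0.19, and Pfkfb3, which stimulates glycolysis, rose by 0.99 ± 0.16. The aldolase gene Aldoc read 32.9, 19.4 and 15.3 CPM under OIL and 2.38, 1.64 and 4.97 CPM under P4, a change of -2.92 ± 0.41, and Pdk1, which inhibits pyruvate entry into mitochondria, fell by 1.05 on the log2 scale. Cholesterol synthesis and uptake held 8 rises and 3 falls in 27, among them Fdps (0.98 ± 0.17), Idi1 (0.93 ± 0.18) and Mvk (0.66 ± 0.14). Rises were 4 without OIL replicate 2 or OIL replicate 3 and 5 without P4 replicate 1 or P4 replicate 3, and falls were 0 without OIL replicate 2 or P4 replicate 3 and 1 without OIL replicate 1, P4 replicate 1 or P4 replicate 2. Lpl, a lipase that also stands in the lipid-laden list, read 100.5, 570.0 and 166 CPM under OIL and 61.2, 14.1 and 21.9 CPM under P4, with groups that did not overlap. Its change of -3.11 ± 0.89 was -2.04 without OIL replicate 2 and no longer called (adjusted p = 0.0983). Fads2, a fatty acid desaturase, read 37.8, 42.1 and 49.9 CPM under OIL and 98.3, 141 and 90.6 CPM under P4, a change of 1.35 ± 0.17.

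Of 30 factors of vessel growth and permeability 5 rose and 4 fell, shares near those of all tested genes (16.2% and 15.6%); rises were 3 without OIL replicate 1 or P4 replicate 1, and falls 2 without OIL replicate 2 or P4 replicate 2. The vessel growth factor gene Pgf read 4.63, 5.8 and 6.53 CPM under OIL and 27.7, 32.7 and 20 CPM under P4, a change of 2.25 ± 0.36, and Ramp1, a partner of the receptor for the peptide that Calca encodes, rose by 0.92 ± 0.17. The constrictor peptide gene Edn1 read 36.2, 36.2 and 28.8 CPM under OIL and 16.9, 21 and 17.3 CPM under P4, a change of -0.88 ± 0.14, and Angpt2 changed by -0.94 ± 0.25. Clock genes held 7 falls and 1 rise in 23, with 4 falls without P4 replicate 3. The repressor gene Bhlhe40 read 84.9, 80 and 65.3 CPM under OIL and 51.1, 38.4 and 49.6 CPM under P4 and fell (-0.73 ± 0.16), and Clock rose (0.59 ± 0.12). The hour of collection is not stated. Immediate early genes held 7 falls and 0 rises in 23 (3 falls without P4 replicate 2, 4 without OIL replicate 2): the stress-induced Atf3 read 119.6, 112 and 40 CPM under OIL and 11.5, 4.57 and 13.7 CPM under P4, a change of -3.20 ± 0.49, and Jun read 321, 291 and 216 CPM under OIL and 145, 110.3 and 153 CPM under P4, a change of -1.02 ± 0.17. Of 29 p53 targets 7 rose and 8 fell (5 falls without P4 replicate 2).

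Macrophage genes that fell mostly did so with OIL replicate 2 in the comparison. Of 26 macrophage markers 8 fell and 0 rose (median -0.56), and without OIL replicate 2 the count was 0 by edgeR (1 at an unadjusted p under 0.05) and the median 0.08. It was also 0 without P4 replicate 2 or P4 replicate 3 and 4 without P4 replicate 1, and limma voom with all libraries called 2. Cd68, a lysosomal protein of macrophages, read 16.1, 98.1 and 15.7 CPM under OIL and 15.8, 10.8 and 13.2 CPM under P4, and the scavenger receptor gene Msr1 read 0.936, 36.5 and 1.73 CPM under OIL and 1.17, 1.34 and 2.27 CPM under P4. In both, OIL replicate 2 alone was high and the others overlapped the P4 libraries. Of 24 lipid-laden macrophage genes tested 16 fell and 1 rose, with a median of -2.51, against 4 falls and a median of -0.25 without OIL replicate 2, 8 falls without P4 replicate 2 and 7 without P4 replicate 3. The 4 that fell without OIL replicate 2 were Gpnmb, the cholesterol exporter gene Abcg1 (22.5, 39.7 and 28.7 CPM under OIL and 16.9, 12.7 and 12 CPM under P4), the galectin gene Lgals3 (62.2, 272 and 58.7 CPM under OIL and 31.7, 22.5 and 42 CPM under P4) and Fam20c (38.5, 82.7 and 29.7 CPM under OIL and 22.6, 19.3 and 18.4 CPM under P4). In the DOX arm 1 macrophage marker rose and 1 fell, and 1 lipid-laden gene rose and 1 fell. The interleukin 1 receptor antagonist gene Il1rn read 0.0446, 42.6 and 0.14 CPM under OIL and 0.225, 0.0431 and 0.378 CPM under P4, and its change of -6.04 ± 1.66 was 1.17 without OIL replicate 2 and not called. Mmp12, a macrophage protease named after its values were seen, read 1.16, 664.3 and 1.4 CPM under OIL and 8.37, 0.302 and 0.0946 CPM under P4, with overlapping groups and a change of -6.25 that was 1.19 without OIL replicate 2 and not called (adjusted p = 0.572).

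Some falls of other leukocyte genes were also called without that library. Of 15 B and plasma cell markers 7 fell, 4 without OIL replicate 1, 3 without OIL replicate 2 or P4 replicate 3 and 2 without P4 replicate 2. Igj (Jchain), the joining chain of secreted antibodies, read 332, 185 and 88.4 CPM under OIL and 55.4, 42.3 and 67.7 CPM under P4, a change of -1.87 ± 0.56, with OIL replicate 1 the highest, and Derl3, a gene of secretory cells, read 21.1, 12.3 and 6.85 CPM under OIL and 1.53, 1.03 and 1.75 CPM under P4, a change of -3.22 ± 0.36. The class II genes H2-Aa (107, 119 and 155 CPM under OIL and 71.8, 59.5 and 55 CPM under P4) and H2-DMa (18.2, 19.8 and 20.2 CPM under OIL and 10.9, 11.7 and 9.18 CPM under P4) fell and were also called without OIL replicate 2, but in 3 and 5 of the 6 fits without 1 library. Of 15 genes of this list 3 fell and 1 rose, 26.7% in all beside 31.8% of all tested genes. The falls were 1 without OIL replicate 3 and 0 without P4 replicate 3. In the DOX arm 9 of the class II list fell and 1 rose, with a median of -1.13. The neutrophil gene S100a8 read 0.312, 12.8 and 0.559 CPM under OIL and 0.09, 0.0431 and 0.0946 CPM under P4, and its partner S100a9 read 0.357, 16.2 and 0.839 CPM under OIL and 0.045, 0.216 and 0.0473 CPM under P4. OIL replicate 2 was by far the highest in both, and the other OIL libraries, at few counts, were still above every P4 library. Their changes of -5.82 ± 1.61 and -5.72 ± 1.59 were -2.45 and -2.45 without OIL replicate 2 and not called (adjusted p = 0.223 and 0.212). Among 36 chemokine and cytokine genes 6 fell, a share near that of all tested genes (15.6%), and 0 rose (3 falls without OIL replicate 2, 2 without P4 replicate 2). Cxcl16 read 31.9, 39.9 and 35.6 CPM under OIL and 19.3, 14.2 and 14.8 CPM under P4, a change of -1.15 ± 0.20, and Cx3cl1 read 52.1, 42.7 and 34.8 CPM under OIL and 21.2, 21.4 and 20.9 CPM under P4, a change of -1.03 ± 0.20. These 2 kept their calls in all 6 fits that left out 1 library.

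Adipocytes make up the fat that surrounds the uterus. Of their markers, 8 of 21 fell and 1 rose with all libraries (median -2.10). Without OIL replicate 2, P4 replicate 2 or P4 replicate 3 the count of falls was 0, and it was 5 without OIL replicate 3. Without OIL replicate 2, 4 fell at an unadjusted p under 0.05 and the median was -1.82; with all libraries DESeq2 called 11 falls and limma voom 16. The lipase gene Pnpla2 read 104, 185 and 99.8 CPM under OIL and 63.9, 44.9 and 45.6 CPM under P4 and the beta-3 adrenergic receptor gene Adrb3 read 4.23, 28.9 and 9.09 CPM under OIL and 2.88, 0.604 and 0.568 CPM under P4. OIL libraries were above P4 libraries in both, by far the most in OIL replicate 2. Thrsp, a lipid synthesis factor, read 18.1, 30.4 and 36 CPM under OIL and 50.9, 72.4 and 69.5 CPM under P4 and rose (1.19 ± 0.37). In the DOX arm 0 of the 21 adipocyte markers fell and 1 rose, with a median of -0.78. Their sums there overlapped, at 963.4 to 1788.2 CPM under OIL and 928 to 1262.2 CPM under P4. How much fat was collected with each uterus, and its part in the falls of Cyp2e1, Slc7a10, Retn and Lpl, was not tested.

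**Figure D5:**
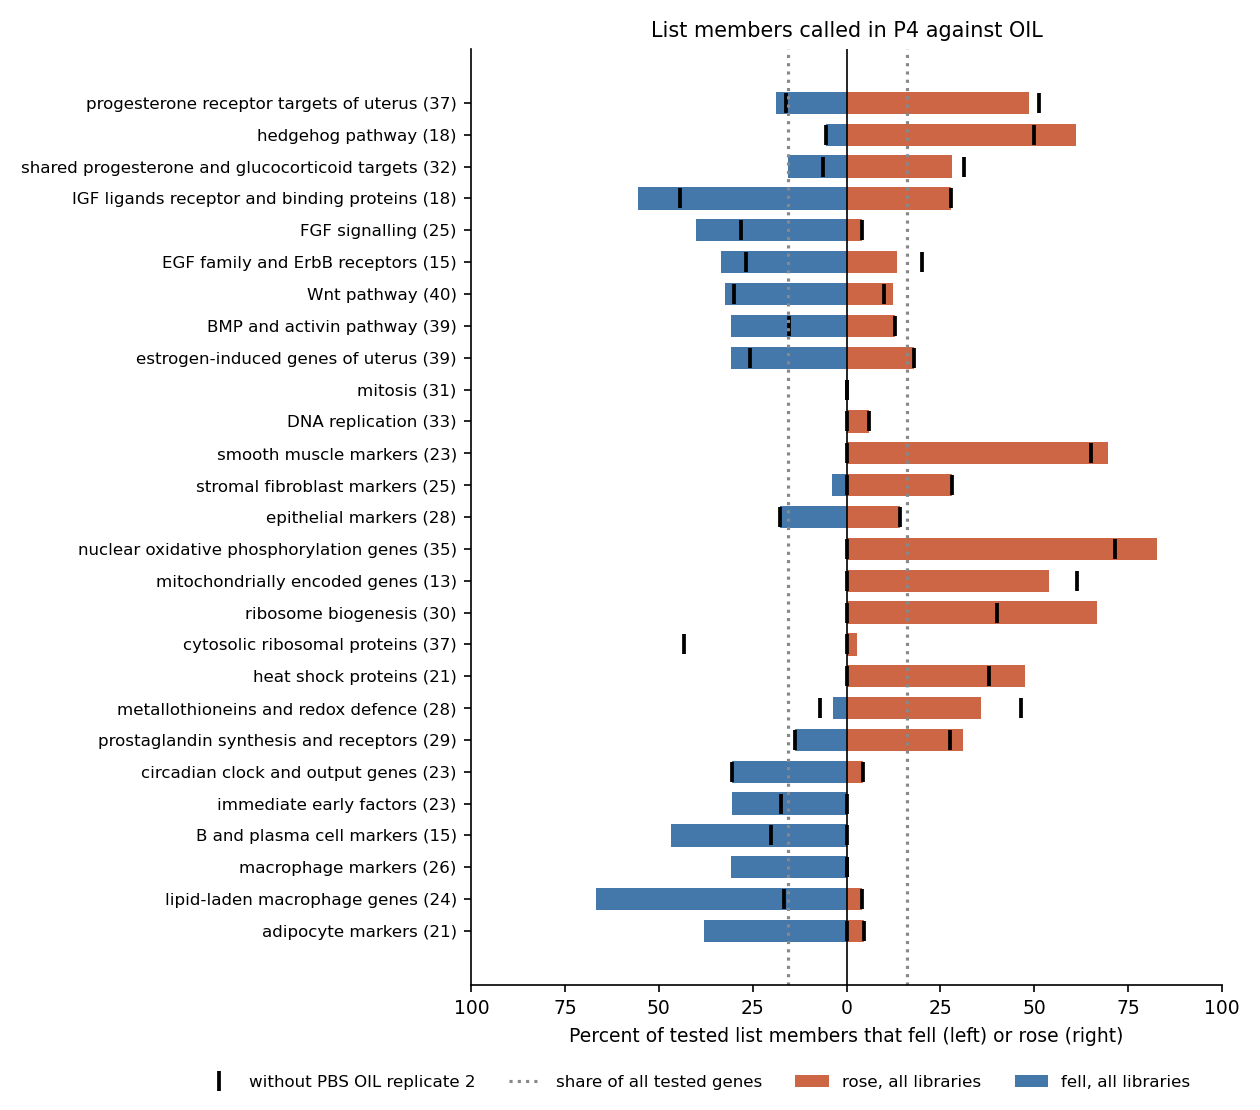
Share of the tested members of 27 gene lists that rose (orange, right) or fell (blue, left) with P4, with the number tested in parentheses. Black ticks give the shares without PBS OIL replicate 2, and dotted lines the shares over all tested genes (16.2% and 15.6%). Ticks stay near the bar ends for hedgehog, smooth muscle and oxidative phosphorylation genes and move to or near 0 for macrophage and adipocyte falls.

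The response of the PBS arm was then set against that of the DOX arm by the interaction term, a test of the difference itself. It called 1 gene of 15494 (0.00645%), Rfx2, a transcription factor of ciliated cells, while an unadjusted p under 0.05 was reached by 525 (3.39%). With DESeq2 there were 2 calls and with limma voom 1. Rfx2 read 27.2, 38.1 and 27.7 CPM under OIL and 57.6, 45.2 and 60.6 CPM under P4 in the PBS arm, and 56.4, 60.2 and 63.2 CPM under OIL and 40.9, 33.1 and 44.5 CPM under P4 in the DOX arm. Every P4 library was above every OIL library in PBS and below every OIL library in DOX. The changes were 0.81 ± 0.14 in PBS and -0.60 in DOX, and their difference was -1.41 ± 0.20 (adjusted p = 0.0477). A ciliated cell factor, Foxj1, read 20.8, 7.15 and 2.94 CPM under OIL and 1.49, 1.98 and 1.66 CPM under P4 and fell in both arms (-2.59 ± 0.64 and -2.69), and OIL replicate 1 was the highest library. Foxj1 did not stand for its list. Of 10 oviduct and ciliated cell markers tested, 3 rose and 1 fell in PBS, and 0 rose and 3 fell in DOX. Without PBS OIL replicate 1 the PBS counts were 1 rise and 0 falls.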

How the data were processed

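Whole uterus was homogenised, and Trizol extracts were sequenced as 18 TruSeq total RNA libraries, per the labels' protocols. The authors deposited 1 table of raw counts per gene symbol, 22238 symbols, of which 2904 were 0 in all libraries. The submitters' processing notes name GRCm38 as the build, HISAT2 2.1.0 and, in no stated order, StringTie 1.3.4d, Trimmomatic 0.36, SAMtools 1.6, R 3.4.4, FastQC 0.11.5 and DESeq2 1.18.1. The counting tool, annotation and strand setting are not stated in the labels or the table, so overlapping, antisense and near-identical genes may share reads.

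Libraries were grouped by their hormone and DOX labels. With edgeR 4.0.16 in R 4.3.3, genes were filtered by filterByExpr (15494 kept), scaled by TMM and fitted by robust quasi-likelihood over all 6 groups (12 residual degrees of freedom), with Benjamini-Hochberg adjustment at 0.05. A simulation changed 67 genes by 1.5-fold, 67 by 2-fold and 66 by 4-fold in the PBS P4 group, and all other genes had the same mean in every group. The fit recovered 46.3% of the 1.5-fold, 71.6% of the 2-fold and 90.9% of the 4-fold changes. Far fewer genes were changed there than the 4930 called here, so the rates may differ from those of this comparison. A gene that was not called may still have changed by a small amount. No pair of libraries in the 2 groups was a copy. Members of 55 gene lists (1432 entries, 20 matched by an older symbol, 9 not in the table) were counted by that test; members and lists were chosen with earlier results of these data known, and the list of mitochondrially encoded genes was added after the table was seen. Named genes were the 12 largest rises and falls that were called, had groups without overlap, reached an average of 1 on the log2 CPM scale and carried no clone name, the 6 largest each way without PBS OIL replicate 2, up to 4 called members with the smallest p per direction of each list, and a panel of 18 genes. Alternatives were DESeq2 size factors, the DESeq2 1.42.0 Wald test, a stricter filter, no filter, quality-weighted voom in limma 3.58.1, a replicate block, only the groups compared, removal of 13 mitochondrial or small RNA features, a macrophage score as covariate, and leaving out each library. Promoters come from RefSeq on GRCm38.p6 and were matched for 223 of 305 named genes, with promoters on chromosome 18 (Ttr among them) left out of that match. Some results are not reported here.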

Additional observations from a re-analysis of the deposited data

Results flagged for a closer look

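Rfx2 stood out because the effect of P4 differed between the PBS and DOX arms by the interaction test: the difference of the log2 fold changes was -1.41 ± 0.20 (DOX minus PBS, adjusted p = 0.0477 by edgeR's quasi-likelihood test). Its 3 P4 libraries were above its 3 OIL libraries in PBS, and its 3 P4 libraries were below its 3 OIL libraries in DOX. The adjusted p lies close to the threshold. No gene was called when any of 10 among the 12 libraries was left out; 1 gene was called without PBS OIL replicate 2 and 1 without PBS P4 replicate 2.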

How the results depend on the processing

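The count of 4930 genes changed by P4 in PBS stayed within 1.5 times under the 9 alternatives of tool, filter, scaling and covariate (3664 to 5453), and over the fits that left out 1 library it ran from 3146 to 4460, with 1697 to 2297 rises and 1449 to 2194 falls. The DOX arm gave 4618 genes and 3057 to 3896 with 1 library left out. The interaction count of 1 became 2 with DESeq2, 0 with the stricter filter, 0 with only the groups compared and 0 with the replicate block, and 0 to 1 with 1 library left out. Equal replicate numbers did not mark pairs: the deviations of same-numbered OIL and P4 libraries correlated at -0.148, -0.233 and 0.007, and the replicate block gave 4931 genes for P4 in PBS (2581 rises, 2350 falls) and 4588 in DOX. With DESeq2 size factors the split was 2751 rises and 2225 falls. Of 299 named genes that were called, 51 were no longer called and 2 changed sign without PBS OIL replicate 2: Msr1 (0.258) and Il1rn (1.17). With 1 library left out, Msr1 ran from -3.586 to 0.258, Il1rn from -6.69 to 1.17, and Tsc22d3, which was not called, from -0.019 to 0.107. Without PBS P4 replicate 3, 64 were no longer called. With 3 libraries a group, calls near the threshold depend on single libraries, and genes of a few counts are limited by depth.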
